A study of Cucurbita pepo with 23 samples.

Results

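The genes of the actin and microtubule cytoskeleton were followed through floral maturation in the nectaries of squash (*Cucurbita pepo*), a plant that carries separate female and male flowers. Genes were taken by their melon descriptions, which had to name tubulin, kinesin, myosin, profilin, villin, a formin-like protein, microtubules, an actin-depolymerizing factor, an actin-related protein or the whole word actin. This gave 89 of 8861 genes, all with a value of at least 10 in at least 2 libraries. Nectaries gave 23 RNA-seq libraries in 8 groups, female and male nectaries each at −24, −15, 0 and +9 hr relative to anthesis, the opening of the flower and time of secretion. The sample labels give −12 and +12 for the second and the last stage, and the hours of the study's text are used here. There were 3 libraries per group and 2, numbered 1 and 3, for female nectaries at −15 hr. The sources used here do not say whether libraries of a group came from separate plants, so p-values measure only the spread between these libraries, which may be technical. The −24 and 0 hr stages shared a time of day, as did −15 and +9 hr, so stage and time of day cannot be told apart between neighbouring stages.

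The plant cytoskeleton consists of microtubules, polymers of alpha and beta tubulin, and of actin filaments. Microtubules are nucleated by gamma-tubulin complexes, decorated by associated proteins, and used as tracks by kinesins. They guide cellulose deposition in the cell wall and form the spindle and phragmoplast of dividing cells. Actin filaments are nucleated by formins and the Arp2/3 complex, severed by actin-depolymerizing factors (ADFs), bundled by villins, supplied with monomers by profilin, and used by myosins to move organelles and vesicles.

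The 89 genes fell into 15 families: 2 alpha tubulins, 4 beta tubulins, 3 genes of gamma-tubulin and its complexes, 4 tubulin-folding cofactors, 7 microtubule-associated proteins (MAPs), 16 kinesins, 5 actins, 5 ADFs, 1 profilin, 4 villins, 8 formins, 13 myosins, 7 subunits of the Arp2/3 complex, 6 other actin-related proteins (Arps) and 4 others. In all, 16 bear a cytoskeletal name only, since their Arabidopsis match is of another kind or absent, and they are marked as such below. Gamma-tubulin complex 3 and formin-like 20 (3745) have no Arabidopsis match either and were kept in their families by name. The 2 KIF4 kinesin entries belong to 1 melon locus. Genes that share a name are told apart by the last 4 digits of their melon identifier, as in ADF2 (5256) for XM_008465256.1. Reads were matched to melon genes, so near-identical squash copies of a tubulin or an actin may share reads, and values of single copies in these families are uncertain to that extent.

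Values are reads normalized by the authors to the upper quartile of each library and rounded, called normalized reads below. Library sums ran from 9269760 to 16139522. The cytoskeletal genes held 1.18% to 1.64% of all normalized reads in the female −24 hr libraries, 0.966% to 1.02% in the male −24 hr libraries and 0.614% to 0.911% in the others. The first female +9 hr library correlated with the other two of its group at 0.784 and 0.816 (Pearson's r of log2 values across genes, which are not independent), below every other pair of a group. The summed level of a set of nectary marker genes was lowest in the female −24 hr libraries. A list of 4 (a NEC1-like sugar transporter, a cell wall invertase and a pair of MYB305 genes) had a summed level of 589 to 1254 normalized reads there, against 96244 to 207113 in the male −24 hr libraries, and of at least 250937 in every library at −15 and 0 hr. The second of the MYB305 genes was listed at 0 in all −24 hr libraries of both sexes. A list of 4 mitotic genes (a pair of cyclins, CDKB2-2 and Aurora-1) had a summed level between 1560 and 5641 in female libraries at −24 hr, and between 1481 and 1912 in male ones, where CDKB2-2 was listed at 0. Cyclin-B1-2-like was the largest of them, with −24 hr means of 2253 in female and 1620 in male nectaries. The female and male means there were 592 and 0 for CDKB2-2, 466 and 49.7 for Aurora-1 and 219 and 49.3 for cyclin-A1-1. At +9 hr, 13 photosynthesis genes summed to 2861 to 17469 and 3 phloem genes to 1123 to 6046 in female nectaries, against 7845 to 8351 and 894 to 1639 at 0 hr. In male nectaries they summed to 8181 to 9176 and 668 to 1349 at +9 hr, against 1663 to 6327 and 632 to 848 at 0 hr. The part of these in the results below was not tested. In whole tissue, fewer cells of a type and less RNA per cell cannot be told apart.

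Most cytoskeletal genes changed with stage, as most genes did. Across the 4 stages, 81 of the 89 changed in female nectaries (92.7% of all genes did) and 69 in male nectaries (84.1% of all genes; limma F-test, adjusted p under 0.05). Between 2 groups a gene was called when its limma p, adjusted over all 8861 genes, was under 0.05 and its values changed at least 2-fold. At −15 hr over −24 hr, 11 genes were higher and 27 lower in female nectaries (13.9% and 24.0% of all genes), with a median log2 fold change of −0.49 beside −0.19 over all genes. In male nectaries 0 were higher and 2 lower (1.57% and 3.70% of all genes), with 19 at an unadjusted p under 0.05. For counts at an unadjusted p, here and below, no share over all genes is given. They cannot be read as particular to the cytoskeletal genes.

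At 0 hr over −15 hr, 10 genes were higher and 27 lower in female nectaries (20.5% and 31.1% of all genes), and 9 higher and 23 lower in male nectaries (17.5% and 29.7%). The share of genes called higher was thus below that of all genes in both sexes, and the share called lower was near it. At +9 hr over 0 hr, 25 were higher and 16 lower in female nectaries (32.0% and 17.3%), and 23 higher and 20 lower in male nectaries (31.4% and 17.6%). With trimmed-mean (TMM) scaling, which moved the median of all genes in this female step to 0.08, against 0.34, the female counts were 19 higher and 20 lower (26.9% and 22% of all genes with that scaling) and the male counts 20 and 25 (27.3% and 21.8%). In all, 65 genes were called in at least 1 female step, 53 in at least 1 male step and 18 in none. The highest of the 4 female group means was at −24 hr for 41 genes, and the lowest at 0 hr for 41 genes in female and 41 in male nectaries. For these counts, and those of genes called in any or no step, no share over all genes is given. They therefore cannot be read as particular to the cytoskeletal genes.

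**Figure D1:**
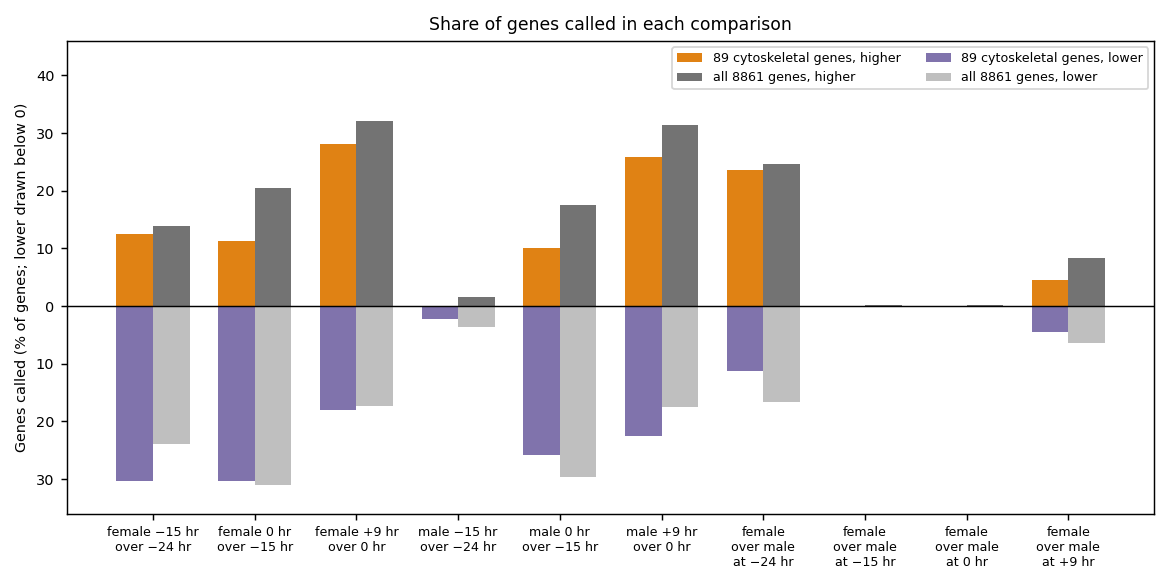
Share of genes called in each comparison (percent of genes, with genes called lower drawn below 0), for the 89 cytoskeletal genes (orange and purple bars) and for all 8861 genes (grey bars). At 0 hr over −15 hr, 11.2% of the cytoskeletal genes were called higher in female and 10.1% in male nectaries, against 20.5% and 17.5% of all genes.

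The female counts of the first step moved with a filter and with a single library. With only the 76 genes of a mean of at least 100, 11 were higher and 15 lower (14.7% and 21% of all genes fitted). Without female −15 hr library 1 both counts were smaller, the lone library left being assumed to vary like those of other groups. No share over all genes is given for that fit. The fall thus cannot be read as particular to the cytoskeletal genes. The libraries of a group often lay wholly above or below those of the next for any gene, so groups that do not overlap are common in these data. Groups did not overlap for 67 of the 89 genes in the female first step (67.5% of all genes), 66 in the female step to 0 hr (77.6%) and 52 in the female step to +9 hr (61.3%). In male nectaries the counts were 33 (34.6%), 54 (69.6%) and 60 (67.7%), and between the sexes at −24 hr 53 (67.0%). The map of all genes shows the group means.

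**Figure D2:**
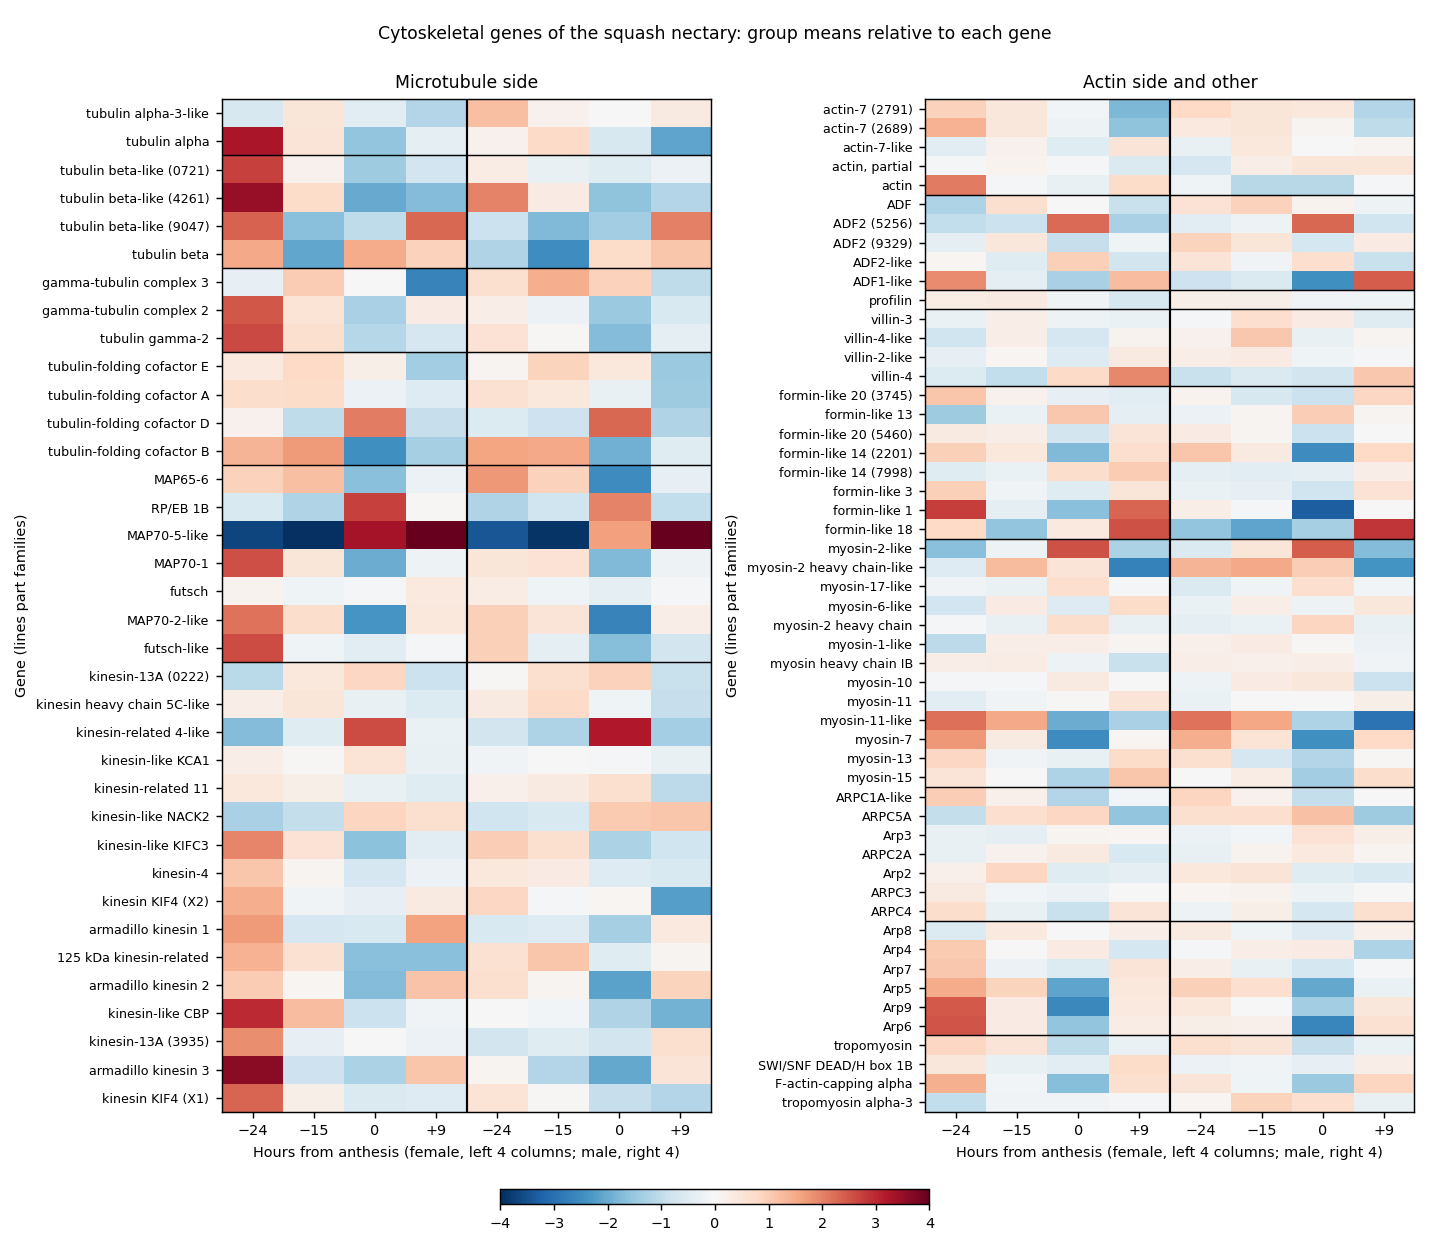
Group means of the 89 genes as log2(mean + 1) minus each gene's average over the 8 groups (colour scale from −4 to 4), in columns for the 4 stages of female and then male nectaries, with lines between families. Tubulin alpha, the 4 beta tubulins, tubulin gamma-2 and gamma-tubulin complex 2 are deepest red at −24 hr in female nectaries, tubulin alpha-3-like and gamma-tubulin complex 3 are not, and ADF2 (5256), myosin-2-like, kinesin-related 4-like, RP/EB 1B and tubulin-folding cofactor D are red at 0 hr in both sexes.

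Most tubulin genes, which encode the subunits of microtubules, were highest in female nectaries at −24 hr. The tubulin alpha gene (XM_008456199.1) had 56538, 46375 and 10402 normalized reads there, against 2675, 4342 and 6264 in male nectaries (2.85 ± 0.69, adjusted p = 0.0017, log2 fold change with its SE). The third female library was well below the others, and all 3 were above the male ones. At −15 hr female nectaries had 4412 and 6695, lower than at −24 hr (−2.47 ± 0.77, adjusted p = 0.013), and at 0 hr 1702, 1545 and 697, lower again (−2.15 ± 0.77, adjusted p = 0.02). Both of these calls were lost without some single libraries, among them female −15 hr library 1 for the first (adjusted p = 0.1) and library 3 for the second (adjusted p = 0.13). Male libraries had 7309, 7783 and 4897 at −15 hr and 2455, 2912 and 2104 at 0 hr, and no male step was called.

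The other alpha tubulin ran the opposite way in female buds. Tubulin alpha-3-like (XM_008466740.1) had 5451, 5930 and 4679 normalized reads at −24 hr in female nectaries, against 17869, 22112 and 18207 in male nectaries (−1.86 ± 0.26, adjusted p = 8.8e-06). At −15 hr the female libraries had 13063 and 10299, higher than at −24 hr (1.12 ± 0.29, adjusted p = 0.0038), and the male libraries had 7081, 10321 and 10516, lower than at −24 hr (−1.08 ± 0.26, adjusted p = 0.016). It was the only gene called in opposite directions in the sexes within a step. The female call was lost without female −15 hr library 1 (adjusted p = 0.059), and the male call without male −15 hr library 1 (adjusted p = 0.068) or male −24 hr library 2 (adjusted p = 0.081). At +9 hr the sexes differed again, with 5130, 2246 and 3797 in female and 11432, 11115 and 9617 in male nectaries (−1.60 ± 0.26, adjusted p = 0.00059).

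All 4 beta tubulins fell in female nectaries at −15 hr. In male nectaries all 4 had lower means too, and none was called. The male log2 fold changes ran from −0.65 for tubulin beta-like (0721) to −1.67 for tubulin beta-like (4261). A difference between the sexes in this change was called for tubulin beta-like (0721) and tubulin beta, and not for tubulin beta-like (4261) or (9047). Tubulin beta-like (0721) had 1897 and 2137 normalized reads at −15 hr, against 13030, 12044 and 10359 at −24 hr in female nectaries (−2.55 ± 0.42, adjusted p = 9.3e-05). The male libraries had 852, 1909 and 1618 at −15 hr and 2040, 2560 and 1960 at −24 hr, so that at −24 hr every female library was above every male one. Tubulin beta-like (4261), with 10763, 6403 and 1687 in female and 2060, 2814 and 1881 in male nectaries at −24 hr, overlapped between the sexes. It fell at 0 hr in both, to 167, 128 and 118 in female nectaries (−2.75 ± 0.80, adjusted p = 0.0061) and 154, 135 and 265 in male nectaries (−1.97 ± 0.72, adjusted p = 0.023).

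The other 2 beta tubulins were higher again at a later stage. Tubulin beta (XM_008447337.1) had 183, 142 and 171 normalized reads at 0 hr, against 15 and 11 at −15 hr in female nectaries (3.58 ± 0.60, adjusted p = 5.3e-05). In male nectaries it had 138, 91 and 67 at 0 hr, against 9, 11 and 9 at −15 hr (3.17 ± 0.54, adjusted p = 5.8e-05). It was the only tubulin that rose at 0 hr, and the libraries of these stages did not overlap in either sex. Tubulin beta-like (9047) had 70, 143 and 726 at +9 hr in female nectaries, against 23, 50 and 18 at 0 hr (2.77 ± 0.94, adjusted p = 0.015), a call lost without female +9 hr library 3 (adjusted p = 0.11) or female 0 hr library 3 (adjusted p = 0.054). In male nectaries a single +9 hr library was high, with 709, 41 and 21.

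**Figure D3:**
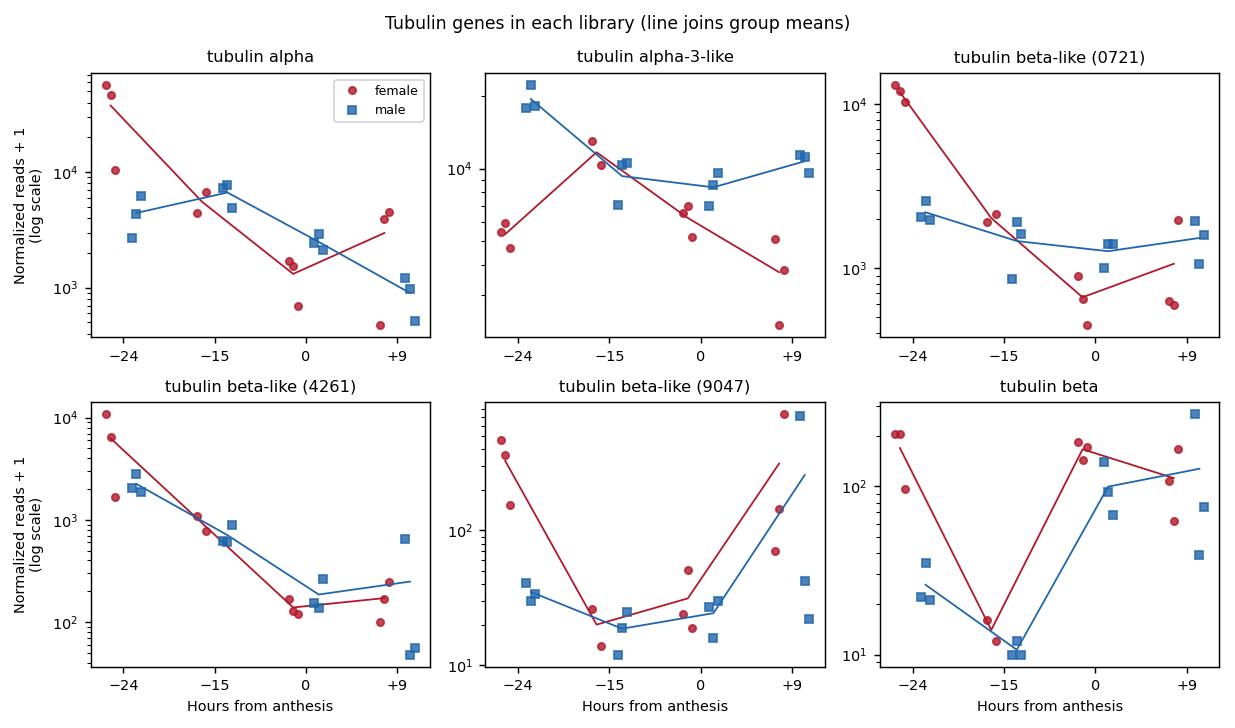
Normalized reads plus 1 (log scale) of the 6 tubulin genes in each library, by hours from anthesis, in female (red circles) and male nectaries (blue squares), with lines through the group means. At −24 hr the 3 female circles lie above the 3 male squares for 4 of the 6 genes, below them for tubulin alpha-3-like and among them for tubulin beta-like (4261).

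Of the genes that nucleate microtubules, tubulin gamma-2 and gamma-tubulin complex 2 fell in the female first step and gamma-tubulin complex 3 rose. Tubulin gamma-2 had 414, 284 and 135 normalized reads at −24 hr in female nectaries, against 72, 81 and 43 in male nectaries (1.98 ± 0.48, adjusted p = 0.0018). It was lower at 0 hr than at −15 hr in female (−1.80 ± 0.53, adjusted p = 0.0067) and male nectaries (−1.94 ± 0.48, adjusted p = 0.0018). Gamma-tubulin complex 3 (XM_008444004.1), by name a component of the nucleating ring, fell after secretion. It had 17, 7 and 10 at +9 hr, against 77, 80 and 72 at 0 hr in female nectaries (−2.73 ± 0.38, adjusted p = 6.4e-06). In male nectaries it had 40, 51 and 21, against 97, 162 and 181 (−1.98 ± 0.38, adjusted p = 0.00015), without overlap in either sex.

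The 4 tubulin-folding cofactors, which assemble the tubulin dimer, split at anthesis. Cofactor D (XM_008461876.1) had 620, 547 and 444 normalized reads at 0 hr, against 56 and 71 at −15 hr in female nectaries (3.06 ± 0.36, adjusted p = 1.1e-06). In male nectaries it had 730, 552 and 630, against 80, 74 and 65 (3.10 ± 0.32, adjusted p = 2.5e-07). By +9 hr it was at 86, 36 and 80 in female nectaries (−3.06 ± 0.32, adjusted p = 4.1e-07, over 0 hr) and 39, 70 and 56 in male nectaries (−3.54 ± 0.32, adjusted p = 3.4e-08). Cofactor B (XM_008457469.1), which acts on alpha tubulin, went the other way. It had 13, 14 and 24 at 0 hr, against 358 and 290 at −15 hr in female nectaries (−4.22 ± 0.61, adjusted p = 1.1e-05), and 6, 16 and 54, against 340, 204 and 305 in male nectaries (−3.89 ± 0.54, adjusted p = 6.9e-06). Cofactor E (XM_008447764.1) fell only in the last step, to 542, 299 and 324 at +9 hr, against 1418, 978 and 1168 at 0 hr in female nectaries (−1.65 ± 0.21, adjusted p = 2.2e-06), and to 322, 412 and 355, against 1328, 1557 and 1204 in male nectaries (−1.91 ± 0.21, adjusted p = 2.6e-07). Cofactor A, which holds beta tubulin, was called lower just at the 2-fold limit at 0 hr than at −15 hr in female nectaries (adjusted p = 0.0078), and fell at +9 hr over 0 hr in male nectaries (−1.15 ± 0.27, adjusted p = 0.0012).

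Upstream of these cofactors, new actin and tubulin chains are folded by the chaperonin CCT and its helper prefoldin, which lie outside the 89 genes. Of 12 such subunits in the table, 11 were called lower at 0 hr than at −15 hr in female nectaries and 11 in male nectaries, beside 31.1% and 29.7% of all genes, with median log2 fold changes of −2.56 and −2.46 beside −0.30 and −0.31 over all genes. At −24 hr, 10 of the 12 were higher and 0 lower in female than in male nectaries (24.6% and 16.6% of all genes), with a median of 2.20 beside 0.13 over all genes. At −15 hr over −24 hr, 9 were lower and 0 higher in female nectaries (24.0% and 13.9% of all genes). In male nectaries 0 were called in that step, where few of all genes were (3.70% lower and 1.57% higher).

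Among the MAPs, a protein of microtubule ends and MAP70-5-like rose at 0 hr while MAP65-6, MAP70-1 and MAP70-2-like fell. RP/EB family member 1B (XM_008442225.1), matched to Arabidopsis EB1A, which tracks growing microtubule ends, had 2848, 1558 and 2142 normalized reads at 0 hr, against 181 and 100 at −15 hr in female nectaries (3.97 ± 0.50, adjusted p = 2.4e-06). In male nectaries it had 1785, 1192 and 910, against 144, 273 and 153 (2.77 ± 0.45, adjusted p = 3.6e-05). All of these 0 hr libraries exceeded every library of the other stages. MAP65-6 (XM_008468690.1), of the family that bundles microtubules, had 158, 159 and 212 at 0 hr, against 1796 and 803 at −15 hr in female nectaries (−2.77 ± 0.51, adjusted p = 0.00014). In male nectaries it had 117, 87 and 91, against 1176, 849 and 1136 (−3.41 ± 0.46, adjusted p = 4.6e-06), again without overlap.

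MAP70-1 and MAP70-2-like, of a plant family that binds along microtubules, were lowest at 0 hr in both sexes. MAP70-2-like (XM_008457490.1) had 8, 11 and 19 normalized reads at 0 hr, against 78 and 149 at −15 hr in female nectaries (−3.07 ± 0.56, adjusted p = 0.00012), and 3, 11 and 16, against 109, 73 and 115 in male nectaries (−3.39 ± 0.50, adjusted p = 1.3e-05). At +9 hr it was higher again, with 44, 90 and 146 in female (2.71 ± 0.50, adjusted p = 0.00013) and 118, 64 and 71 in male nectaries (3.14 ± 0.50, adjusted p = 2.5e-05). MAP70-1 was called in the same directions in these steps, and differed between the sexes at −24 hr, with 1023, 976 and 983 in female and 195, 256 and 243 in male nectaries (2.11 ± 0.35, adjusted p = 5.3e-05).

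MAP70-5-like (XM_008441866.1), whose Arabidopsis counterpart takes part in the wall thickening of xylem vessels, was listed at 4 or less in every library before anthesis. It was listed at 0 in both female −15 hr libraries, and at 3, 0 and 0 at −24 hr. In male nectaries it was listed at 0, 4 and 0 at −24 hr and 2, 0 and 0 at −15 hr. At 0 hr it had 181, 141 and 436 in female (adjusted p = 1.8e-06 over −15 hr) and 112, 25 and 96 in male nectaries (adjusted p = 2.5e-05), with every 0 hr library above every earlier one. At +9 hr it had 1262, 201 and 177 in female nectaries, which was not called over 0 hr, and 833, 2005 and 3037 in male nectaries (4.71 ± 0.86, adjusted p = 0.0001). The xylem marker in the table, a xylem serine proteinase 1-like gene, stood at 443 to 1897 normalized reads at +9 hr in female libraries and 217 to 1039 in male ones, against 38 to 74 and 52 to 62 at 0 hr. At −15 hr it stood at 99 to 135 and 45 to 104, and at −24 hr at 219 to 370 and 74 to 103. The marker is a single gene taken by the word xylem in its description. A relation between the 2 genes was not tested.

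Kinesins, the microtubule motors, were the largest family, and in the female first step 2 of 16 were higher and 7 lower (13.9% and 24.0% of all genes), and in male nectaries 0 and 0 (1.57% and 3.70% of all genes). Armadillo kinesin 3 (XM_008438944.1) had 8 and 20 normalized reads at −15 hr, against 338, 365 and 268 at −24 hr in female nectaries (−4.55 ± 0.53, adjusted p = 2.6e-06). The male libraries had 8, 12 and 12 at −15 hr and 19, 28 and 35 at −24 hr. Armadillo kinesin 1 (XM_008458298.1), whose Arabidopsis counterpart shapes root hairs, had 66 and 77 at −15 hr, against 357, 281 and 467 at −24 hr in female nectaries (−2.32 ± 0.39, adjusted p = 0.00011). All 3 armadillo kinesins, which carry protein-binding repeats beside the motor, were then called higher at +9 hr than at 0 hr in both sexes. Armadillo kinesin 2 (XM_008439925.1) had 150, 226 and 239 at +9 hr, against 26, 29 and 28 at 0 hr in female nectaries (2.82 ± 0.34, adjusted p = 1.6e-06). Male nectaries had 210, 122 and 191, against 26, 23 and 12 (3.07 ± 0.34, adjusted p = 3.5e-07).

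The kinesin-like calmodulin-binding protein (XM_008450215.1), known as ZWICHEL in Arabidopsis, where it acts in trichome branching, was higher in female nectaries at −24 hr. It had 540, 426 and 292 normalized reads in female and 46, 74 and 34 in male nectaries (3.03 ± 0.51, adjusted p = 7.2e-05). The 125 kDa kinesin-related gene (XM_008459301.1), named for the kinesin-5 type that works in spindles, fell at 0 hr. It had 30, 29 and 43 at 0 hr, against 198 and 141 at −15 hr in female nectaries (−2.29 ± 0.45, adjusted p = 0.00026), and 36, 85 and 117, against 202, 197 and 316 in male nectaries (−1.69 ± 0.40, adjusted p = 0.0013). Kinesin-like NACK2, named for a tobacco kinesin of the phragmoplast, was called higher at 0 hr in both sexes, with 811, 418 and 334, against 173 and 121 at −15 hr in female nectaries (1.73 ± 0.53, adjusted p = 0.0083).

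The 2 kinesin-13A genes ran different courses. Kinesin-13A (0222), matched to an Arabidopsis kinesin known from Golgi stacks, had 2631, 2594 and 2902 normalized reads at −24 hr, 7810 and 7676 at −15 hr, 12056, 10032 and 8549 at 0 hr and 3655, 3141 and 2774 at +9 hr in female nectaries. Male libraries had 5867, 6188 and 5988, then 8273, 10637 and 7808, then 12676, 10876 and 9099 and then 2878, 3153 and 3244. It rose at −15 hr in female nectaries (1.52 ± 0.21, adjusted p = 1.2e-05), was not called at 0 hr over −15 hr, and fell at +9 hr in female (−1.67 ± 0.18, adjusted p = 6.1e-07) and male nectaries (−1.80 ± 0.18, adjusted p = 1.3e-07). Kinesin-13A (3935) was instead higher in female than in male nectaries at −24 hr, with 392, 226 and 138 in female libraries and 44, 58 and 22 in male ones (2.56 ± 0.61, adjusted p = 0.0016).

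Kinesin-related 4-like (XM_008459484.1), a kinesin by name only with no Arabidopsis match, was high at 0 hr alone. It had 2775, 3431 and 2744 normalized reads at 0 hr, against 373 and 313 at −15 hr in female nectaries (3.11 ± 0.41, adjusted p = 3.4e-06). The male libraries had 4335, 4569 and 4638, against 209, 222 and 190 (4.44 ± 0.36, adjusted p = 1.4e-08). Its +9 hr values were 702, 146 and 351 in female and 170, 180 and 215 in male nectaries, and no library of another stage reached those of 0 hr.

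Of the actins, which form the filaments, both genes annotated actin-7 fell after secretion. Actin-7 (2791) had 1735, 1034 and 2453 normalized reads at +9 hr, against 5727, 6628 and 4501 at 0 hr in female nectaries (−1.76 ± 0.32, adjusted p = 0.0001). In male nectaries the gene had 4197, 1805 and 1954, against 6739, 8531 and 8666 (−1.69 ± 0.32, adjusted p = 0.00014). Actin-7 (2689) fell in the same step, in female (−1.51 ± 0.28, adjusted p = 0.00012) and male nectaries (−1.15 ± 0.28, adjusted p = 0.0014). For both genes the +9 hr libraries lay below all earlier libraries of their sex, and no earlier step was called. Actin-7-like did not share this, with 1817, 850 and 3100 at +9 hr and 935, 1010 and 884 at 0 hr in female nectaries. Profilin (XM_008460768.1), which binds actin monomers, was called in no step, with female means of 8137, 8341, 5829 and 4249 and male means of 7724, 7727, 5893 and 5808 through the 4 stages.

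The 5 ADFs, which sever and depolymerize filaments, did not run together. ADF2 (5256) had 32494, 16820 and 23458 normalized reads at 0 hr, against 3279 and 2314 at −15 hr in female nectaries (3.09 ± 0.49, adjusted p = 2.7e-05). Male values were 30429, 24218 and 20344, against 3787, 6177 and 3392 (2.52 ± 0.44, adjusted p = 6.8e-05). At +9 hr it was down to 4126, 1041 and 1105 in female nectaries (−3.80 ± 0.44, adjusted p = 9.4e-07, over 0 hr) and 2156, 3291 and 3262 in male nectaries (−3.11 ± 0.44, adjusted p = 5.7e-06). Every 0 hr library was at least 2-fold above every library of the other stages. ADF2 (9329) ran opposite to its namesake, with 2938, 3668 and 3430 at 0 hr, against 8616 and 8862 at −15 hr in female nectaries (−1.39 ± 0.25, adjusted p = 0.00011), and 2755, 3797 and 4991, against 10267, 8173 and 8371 in male nectaries (−1.25 ± 0.23, adjusted p = 0.00011).

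The remaining ADFs differed between the sexes or after secretion. The gene annotated simply as ADF (XM_008449208.1) had 2924, 3774 and 5138 normalized reads at −24 hr in female nectaries, against 13919, 13570 and 14422 in male nectaries (−1.86 ± 0.24, adjusted p = 3.4e-06). At −15 hr the female libraries had 14899 and 14155 (1.92 ± 0.27, adjusted p = 1.5e-05, over −24 hr) and the male ones 19844, 16441 and 16956. ADF1-like (XM_008449409.1) was higher in female nectaries at −24 hr, with 1193, 1115 and 636, against 206, 86 and 154 in male nectaries (2.75 ± 0.47, adjusted p = 8.6e-05). It rose at +9 hr to 678, 411 and 759, against 53, 147 and 119 at 0 hr in female nectaries (2.60 ± 0.47, adjusted p = 0.00011), and to 1173, 1628 and 1417, against 33, 30 and 79 in male nectaries (4.99 ± 0.47, adjusted p = 5.4e-08), without overlap in either sex. ADF2-like had 495, 392 and 365 at +9 hr, against 1008, 1353 and 1694 at 0 hr in female nectaries (−1.67 ± 0.25, adjusted p = 1.2e-05), and fell in that step in male nectaries too (−1.57 ± 0.25, adjusted p = 2e-05).

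Of the 4 villins, which bundle filaments, villin-4-like alone was called in a step. It had 3252 and 2451 normalized reads at −15 hr, against 1124, 1291 and 1649 at −24 hr in female nectaries (1.08 ± 0.35, adjusted p = 0.016). Male nectaries had 2080, 2026 and 1683 at 0 hr, against 2785, 6671 and 5595 at −15 hr (−1.29 ± 0.31, adjusted p = 0.0015). Villin-3 (XM_008444908.1) had female means of 2674, 3805, 2798 and 2679 through the stages, and male means of 2998, 5136, 4023 and 2262.

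Formins, which nucleate and elongate filaments, included 4 of 8 called higher in the step to +9 hr in female nectaries, with 1 called lower (32.0% and 17.3% of all genes), and 5 higher and 0 lower in male nectaries (31.4% and 17.6% of all genes). Formin-like 14 (2201) had 196, 387 and 349 normalized reads at +9 hr, against 61, 73 and 36 at 0 hr in female nectaries (2.43 ± 0.30, adjusted p = 2.3e-06). The male libraries had 413, 337 and 270, against 33, 33 and 34 (3.29 ± 0.30, adjusted p = 4e-08). Its 0 hr values were in turn below those of −15 hr in female (−2.27 ± 0.34, adjusted p = 1.7e-05) and male nectaries (−2.86 ± 0.30, adjusted p = 3.2e-07). Formin-like 18 (XM_008454857.1) had 114, 239 and 423 at +9 hr, against 32, 8 and 0 at 0 hr in male nectaries (5.09 ± 0.89, adjusted p = 6.8e-05, on the log2(value + 1) scale). Formin-like 1 (XM_008462187.1), of the plasma membrane formins, had 318, 290 and 267 at −24 hr in female nectaries, against 61, 53 and 38 in male nectaries (2.52 ± 0.82, adjusted p = 0.015).

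Formin-like 13 (XM_008445641.1) was the exception among the formins, being highest at 0 hr. It had 3089, 2421 and 2651 normalized reads at 0 hr, against 1201 and 962 at −15 hr in female nectaries (1.33 ± 0.35, adjusted p = 0.003), and fell to 1182, 1095 and 745 at +9 hr (−1.45 ± 0.32, adjusted p = 0.00056). In male nectaries the gene had 2876, 2823 and 2046, against 1335, 1685 and 1215, a log2 difference of 0.87 that missed the 2-fold limit.

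Of the 13 entries named myosin, 5 match plant myosin motors, and among these myosin-2-like (XM_008456408.1) rose at 0 hr. Its Arabidopsis match is a class VIII myosin, a class known from plasmodesmata and endocytosis. It had 11987, 10073 and 9889 normalized reads at 0 hr, against 2256 and 891 at −15 hr in female nectaries (2.90 ± 0.54, adjusted p = 0.00014). Male values were 11333, 9993 and 7675, against 1582, 4093 and 1841 (2.06 ± 0.48, adjusted p = 0.0011). At +9 hr it was down to 1512, 480 and 258 in female nectaries (−4.21 ± 0.48, adjusted p = 9.2e-07) and 374, 419 and 830 in male nectaries (−4.23 ± 0.48, adjusted p = 4.7e-07). The other class VIII match, myosin-1-like, was not called at 0 hr over −15 hr or at +9 hr over 0 hr in either sex. Of the class XI motors, which drive cytoplasmic streaming, myosin-17-like had 1952, 1838 and 1771 at 0 hr, against 963 and 995 at −15 hr in female nectaries, and its log2 differences of 0.92 in female and 0.86 in male nectaries missed the 2-fold limit. Myosin-15, also of class XI, went the other way, with 66, 132 and 92 at 0 hr, against 188 and 278 at −15 hr in female nectaries (−1.29 ± 0.38, adjusted p = 0.0064) and 58, 66 and 138, against 297, 254 and 294 in male nectaries (−1.78 ± 0.34, adjusted p = 0.00019). It was higher again at +9 hr in female (2.34 ± 0.34, adjusted p = 1.1e-05) and male nectaries (2.18 ± 0.34, adjusted p = 1.9e-05). Myosin-6-like was called in female nectaries alone, higher at −15 hr (1.05 ± 0.27, adjusted p = 0.0036) and at +9 hr (1.28 ± 0.24, adjusted p = 0.00016), and a difference from male nectaries in these steps was not called.

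The 8 entries that are myosins by name only include several large changes. Myosin-2 heavy chain-like (XM_008444532.1) had 228, 75 and 116 normalized reads at +9 hr, against 1453, 1256 and 1210 at 0 hr in female nectaries (−3.36 ± 0.29, adjusted p = 6.5e-08). Male nectaries had 115, 180 and 233, against 1831, 1874 and 1797 (−3.43 ± 0.29, adjusted p = 1.5e-08). Myosin-11-like (XM_008457513.1), matched to an Arabidopsis plectin-related protein, fell at 0 hr in both sexes, to 43, 73 and 15, against 503 and 512 at −15 hr in female nectaries (−3.77 ± 0.47, adjusted p = 2.2e-06), and to 39, 76 and 108, against 457, 660 and 410 in male nectaries (−2.84 ± 0.42, adjusted p = 1.4e-05). Myosin-13 (XM_008467653.1) was 1 of the 2 genes that fell in the male first step, with 154, 122 and 219 at −15 hr, against 484, 403 and 343 at −24 hr (−1.34 ± 0.38, adjusted p = 0.038), a call lost without some single libraries. Myosin-7 (XM_008462278.1) fell at 0 hr, in female (−2.85 ± 0.45, adjusted p = 2.9e-05) and male nectaries (−3.04 ± 0.40, adjusted p = 4e-06). Without all 16 entries that are cytoskeletal by name only, 9 of 73 genes were higher and 24 lower at 0 hr over −15 hr in female nectaries, and 7 and 20 in male nectaries.

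The 7 subunits of the Arp2/3 complex, which nucleates branched filaments, did not move together. ARPC5A (XM_008443145.1) had 252, 228 and 241 normalized reads at +9 hr, against 1565, 1256 and 1033 at 0 hr in female nectaries (−2.39 ± 0.19, adjusted p = 3.3e-08). The male libraries had 238, 285 and 277, against 1449, 1768 and 1625 (−2.59 ± 0.19, adjusted p = 3.4e-09). ARPC4 went the other way in that step, with 143, 273 and 292, against 57, 98 and 107 in female nectaries (1.41 ± 0.31, adjusted p = 0.00063), and 305, 212 and 244, against 81, 101 and 118 in male nectaries (1.33 ± 0.31, adjusted p = 0.00097). ARPC1A-like (XM_008451282.1) fell at 0 hr, to 330, 364 and 355, against 681 and 1149 at −15 hr in female nectaries (−1.34 ± 0.22, adjusted p = 4.1e-05), and to 399, 398 and 446, against 921, 753 and 1034 in male nectaries (−1.11 ± 0.20, adjusted p = 8.5e-05). The male call was lost with TMM scaling (−0.87), and the female one without female −15 hr library 3 (−0.96), both for a change under 2-fold. Arp3, ARPC2A and ARPC3 were called in no step, and ARPC3 (XM_008458991.1) had the smallest coefficient of variation over all libraries among genes with a mean of at least 100 (21.2%, values from 196 to 488).

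The other actin-related proteins, several of which sit in nuclear chromatin-remodelling complexes, differed among themselves. Arp5 (XM_008463463.1), known from the INO80 complex, had 31, 11 and 11 normalized reads at 0 hr, against 143 and 150 at −15 hr in female nectaries (−3.15 ± 0.44, adjusted p = 7.2e-06), and 20, 21 and 14, against 149, 95 and 138 in male nectaries (−2.72 ± 0.39, adjusted p = 9.9e-06). Arp6, of the SWR1 complex, had 289, 274 and 261 at −24 hr in female nectaries, against 65, 56 and 46 in male nectaries (2.29 ± 0.39, adjusted p = 8.2e-05), and was called lower at 0 hr and higher at +9 hr in both sexes. F-actin-capping alpha, which caps filament ends, was called in the same directions in those steps. Tropomyosin, an entry by name only, had 1011, 1046 and 870 at 0 hr, against 3028 and 2689 at −15 hr in female nectaries (−1.55 ± 0.25, adjusted p = 2.8e-05). Arp8 (XM_008450843.1), an actin-like protein, was called in no step and differed between the sexes in its first change. Female libraries had 390 and 373 at −15 hr, against 161, 190 and 248 at −24 hr, and male ones 358, 169 and 252 at −15 hr, against 392, 461 and 282 at −24 hr. Arp4 was called lower at +9 hr than at 0 hr in female (−1.02 ± 0.37, adjusted p = 0.023) and male nectaries (−1.65 ± 0.37, adjusted p = 0.00075).

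**Figure D4:**
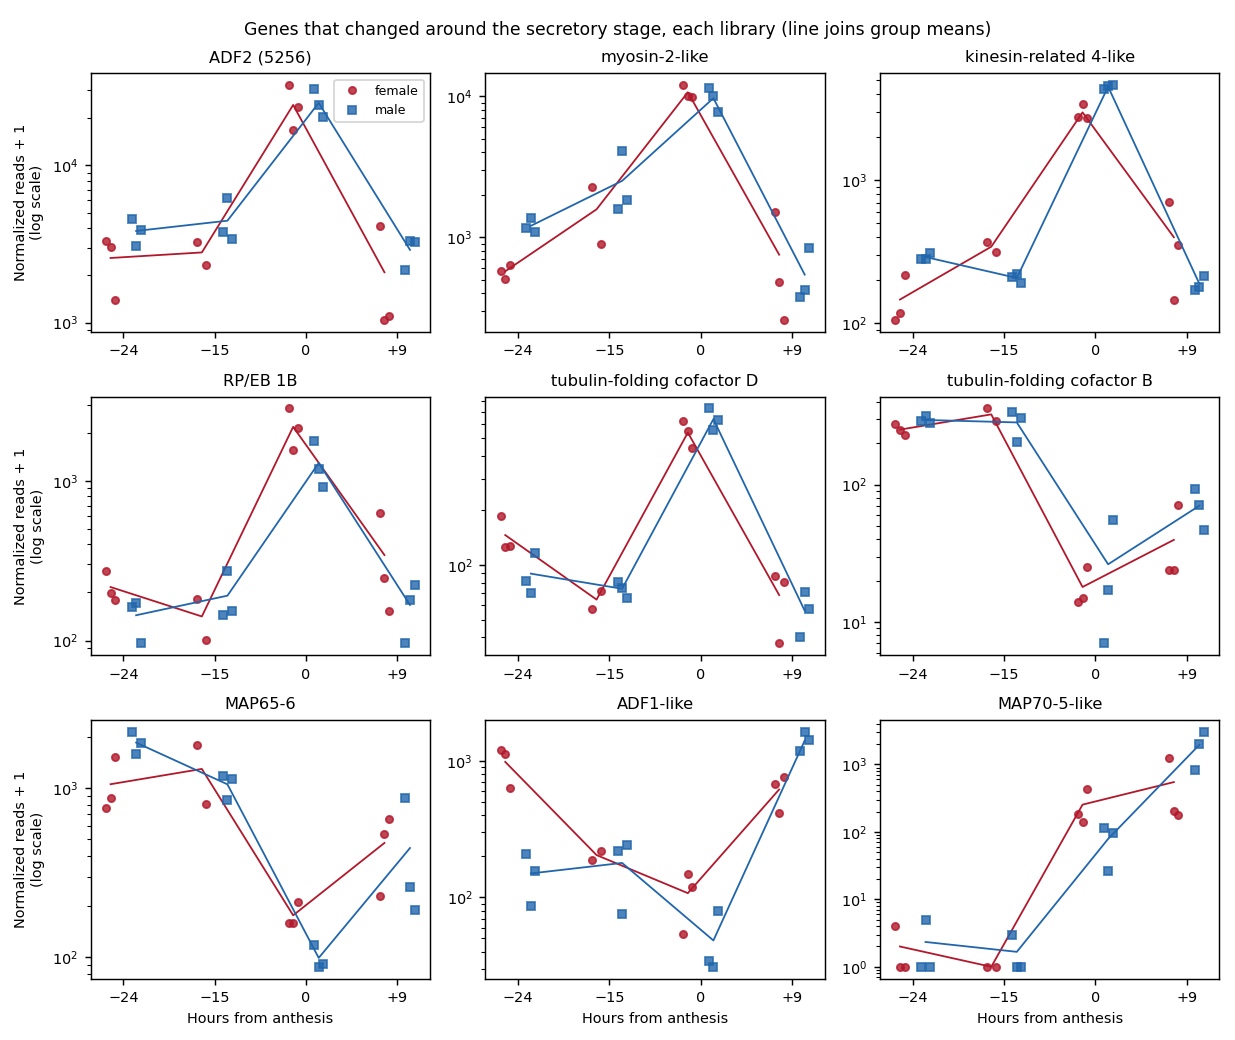
Normalized reads plus 1 (log scale) of 9 genes in each library, by hours from anthesis, in female (red circles) and male nectaries (blue squares), with lines through the group means. The first 5 genes are highest at 0 hr in both sexes, tubulin-folding cofactor B and MAP65-6 are lowest there, and ADF1-like and MAP70-5-like are highest at +9 hr in male nectaries.

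Most calls between female and male nectaries were at −24 hr, among the cytoskeletal genes as among all genes. There, 21 of 89 genes were higher and 10 lower in female than in male nectaries (24.6% and 16.6% of all genes), with a median log2 fold change of 0.26 beside 0.13 over all genes. The share called higher was near that of all genes, and the share called lower was below it. The 21 included 3 beta tubulins, tubulin gamma-2 and gamma-tubulin complex 2, 5 kinesins, 3 formins and 3 MAPs. Futsch-like (XM_008458754.1), a microtubule protein by name only, had 377, 344 and 423 normalized reads in female and 120, 134 and 107 in male nectaries (1.66 ± 0.56, adjusted p = 0.018). The 10 included 2 ADFs, 2 kinesins and ARPC5A, which had 326, 337 and 444 normalized reads in female and 1083, 1035 and 1297 in male nectaries (−1.63 ± 0.19, adjusted p = 1e-06). The summed nectary marker genes were low in these female libraries, and low again after secretion in both sexes. Their part in these counts was not tested. When only genes with a mean of at least 100 were fitted, which left 76 of the 89, 8 genes were called higher and 10 lower (21.6% and 17.5% of all genes fitted), so that the higher count no longer exceeded the lower.

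At −15 hr 0 genes were higher and 0 lower (0.0903% and 0.0451% of all genes), with 3 at an unadjusted limma p under 0.05. At 0 hr the counts were 0 and 0 (0.181% and 0.0677% of all genes), with 18 at an unadjusted p under 0.05. Since no share over all genes is given for these unadjusted counts, they do not show a difference particular to the cytoskeletal genes. At +9 hr 4 were higher and 4 lower in female nectaries (8.36% and 6.36% of all genes). The higher ones were kinesin KIF4 (X2), kinesin-like CBP, armadillo kinesin 1 and myosin-11-like, and the lower ones tubulin alpha-3-like, gamma-tubulin complex 3, the 125 kDa kinesin-related gene and formin-like 20 (3745). The 125 kDa gene had 52, 30 and 19 normalized reads in female and 102, 160 and 97 in male nectaries (−1.88 ± 0.40, adjusted p = 0.0037). The +9 hr counts depended on single libraries: without female +9 hr library 1, which stood apart, they were 10 and 7, without female +9 hr library 3 they were 1 and 7, and the higher count was 9 without male +9 hr library 1 and 1 without male +9 hr library 2 or 3. With each stage fitted alone they were 0 and 0. No shares over all genes are given for these fits, so the swings cannot be read as particular to the cytoskeletal genes.

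The change itself was also compared between the sexes, as plotted for all 89 genes. In the first step 17 genes differed, 8 with a more positive and 9 with a more negative change in female nectaries (12.3% and 15.7% of all genes). In the step to 0 hr 0 and 0 differed (0% and 0.0113% of all genes), with 3 at an unadjusted limma p under 0.05, and in the step to +9 hr 2 and 3 differed (2.57% and 4.60% of all genes). Calls shared by the sexes within a step were near the share among all genes in the step to 0 hr. There, 8 genes were called higher in both sexes, 80% of the female and 88.9% of the male calls, against 77.5% and 90.7% over all genes. In the same step 20 were lower in both (74.1% and 87%, against 81.9% and 85.7% over all genes). At +9 hr over 0 hr, 16 were higher in both (64% and 69.6%, against 74.7% and 76.3% over all genes) and 15 lower (93.8% and 75%, against 70.8% and 69.8%). In the first step 0 of the 11 higher and 0 of the 27 lower female calls were shared (5.62% and 6.02% over all genes), and 1 was called the other way in male nectaries.

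**Figure D5:**
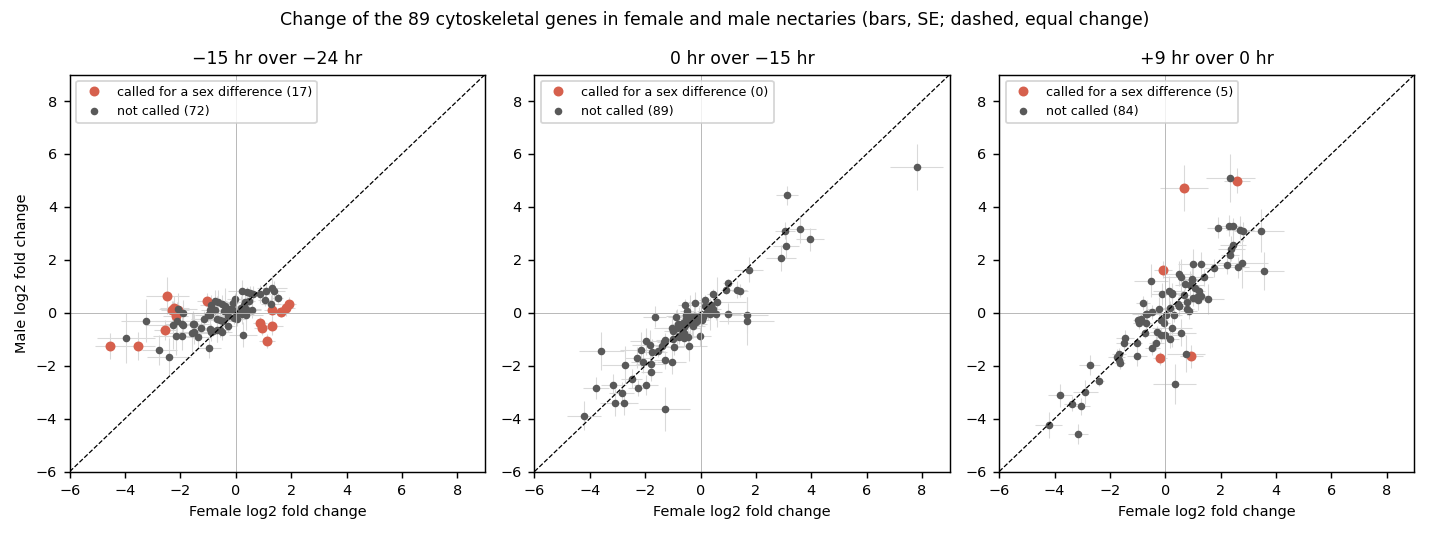
Log2 fold change of each of the 89 genes in female (horizontal axis) and male nectaries (vertical axis) in the 3 steps, with SE bars and a dashed line of equal change. In the first step the points spread along the female axis and 17 genes differ in their change between the sexes (red), and in the step to 0 hr the points lie near the dashed line and 0 differ.

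Of the genes that differed in the last step, kinesin-related 11 (XM_008449837.1) had 307, 298 and 482 normalized reads at +9 hr and 472, 469 and 299 at 0 hr in female nectaries. Male libraries had 333, 218 and 179 at +9 hr, against 759, 892 and 699 at 0 hr. It was called lower in male nectaries (−1.72 ± 0.25, adjusted p = 6.9e-06), and the changes differed (1.53 ± 0.35, adjusted p = 0.014, female minus male). Formin-like 20 (3745) rose in male nectaries, to 5059, 2263 and 2318 at +9 hr, against 1333, 975 and 693 at 0 hr (1.63 ± 0.32, adjusted p = 0.00021). Female libraries had 1523, 1171 and 1432 at +9 hr, against 1262, 1399 and 1713 at 0 hr, and the changes differed (−1.71 ± 0.45, adjusted p = 0.029). That difference was lost without any of several single libraries, as was that of MAP70-5-like.

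Lists outside the 89 genes give their partners. Of 24 other microtubule proteins, such as katanin, SPIRAL1-like and IQ-domain proteins, 12 were higher and 2 lower in female than in male nectaries at −24 hr (24.6% and 16.6% of all genes), with a median log2 fold change of 0.89 beside 0.13 over all genes. At 0 hr over −15 hr 7 of them were higher and 10 lower in female nectaries (20.5% and 31.1% of all genes), and 5 and 9 in male nectaries (17.5% and 29.7%). Of 5 other actin binders, among them fimbrins and SCAR proteins, 3 were lower and 0 higher at 0 hr than at −15 hr in each sex. Of all genes, 31.1% were lower and 20.5% higher in female nectaries, and 29.7% and 17.5% in male nectaries. The medians of these actin binders were −2.16 in female and −1.55 in male nectaries beside −0.30 and −0.31 over all genes. All 4 mitotic genes were lower at −15 hr than at −24 hr in female nectaries (24.0% of all genes, median −2.72 beside −0.19), and 0 were called in that step in male nectaries (1.57% higher and 3.70% lower of all genes).

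The 18 genes called in no step held 3 of the 7 Arp2/3 subunits, 3 of the 4 villins, profilin, 2 of the 5 actins and 2 of the 16 kinesins. Beside ARPC3, the steadiest were futsch (XM_008463726.1) and myosin-11 (XM_008441716.1), cytoskeletal by name only, with coefficients of variation of 22.9% and 23.2% over all libraries.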

How the data were processed

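RNA-seq values of squash nectaries were used as deposited, each library having 1 value for a melon gene. Reads had been assembled by the authors with Trinity, matched as contigs to melon genes by blastn, normalized by the upper quartile and rounded to whole numbers, so each deposited value is a score and not a read count. How reads were counted is not stated in what was read here. The authors' own p-values and ratios, and 27 sheets of selected genes, were not used. All 8861 genes were fitted with limma 3.58.1 (R 4.3.3) on log2(value + 1), with a mean-variance trend and 1 mean for each of the 8 groups. Genes were called at a Benjamini-Hochberg adjusted p under 0.05 over all genes and a change of at least 2-fold. The code was tested on simulated data. The members and lists were chosen with earlier results of these data known. Named genes are the most abundant of each family, the largest non-overlapping calls of each comparison, the 3 steadiest and those that differed between the sexes in their change, and others were named after their values were seen. Alternatives were a pseudocount of 10, a mean of at least 100, TMM scaling, separate fits, a replicate block and leaving out libraries. A count test had been planned in case the files held raw counts and was not run. Read depth is unknown, so low values carry no counting interval.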

Additional observations from a re-analysis of the deposited data

Results flagged for a closer look

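The genes below differed between female and male nectaries in their change over a step, by a limma test of that difference (female minus male, log2, adjusted p over all genes). At −15 hr over −24 hr the difference was −3.11 for tubulin alpha (adjusted p = 0.028), 2.20 for tubulin alpha-3-like (adjusted p = 0.00037), −1.89 for tubulin beta-like (0721) (adjusted p = 0.017) and −2.27 for tubulin beta (adjusted p = 0.04). Among kinesins it was −2.41 for armadillo kinesin 1 (adjusted p = 0.0022), −3.29 for armadillo kinesin 3 (adjusted p = 0.0021) and 1.78 for kinesin-related 4-like (adjusted p = 0.018). On the actin side it was −2.39 for ADF1-like (adjusted p = 0.016), 1.58 for ADF (adjusted p = 0.0028), 1.63 for ARPC5A (adjusted p = 0.0003), 1.53 for Arp8 (adjusted p = 0.01) and 1.63 for myosin-2 heavy chain-like (adjusted p = 0.0084). The rest of the 17 were MAP70-1 (−2.19, adjusted p = 0.0039), Arp6 (−2.07, adjusted p = 0.013) and ARPC4 (−1.50, adjusted p = 0.02), with ADF2 (9329) (1.27, adjusted p = 0.0085) and myosin-1-like (1.18, adjusted p = 0.015). Fewer of the 89 genes were called for such a difference without female −15 hr library 1 than the 17 called with it. A lone library was then left in that group, and no share over all genes is given for that fit.

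At +9 hr over 0 hr it was 1.53 for kinesin-related 11 (adjusted p = 0.014), −4.04 for MAP70-5-like (adjusted p = 0.049), −2.39 for ADF1-like (adjusted p = 0.036), −1.71 for formin-like 20 (3745) (adjusted p = 0.029) and 2.59 for myosin-11-like (adjusted p = 0.015).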

How the results depend on the processing

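Of 163 calls on 46 named genes, 160 held with a pseudocount of 10, 156 with TMM scaling, 138 of 139 among genes with a mean of at least 100 and 133 of 146 in separate fits. Without any 1 library 125 held, 38 were lost without at least 1, and 0 reversed under any of these settings. Many of these genes were named for the size of their calls in these same data. That most of their calls held follows in part from this choice and says little of the other genes. Of 141 recomputed counts 136 stayed within 1.5 times. With a mean of at least 100, 15 genes were lower in female nectaries at −15 hr and 8 higher in female than in male nectaries at −24 hr (fewer genes tested). In separate fits 0 were higher and 0 lower at +9 hr in female against male nectaries (fewer libraries). Without all female −24 hr libraries, an alternative chosen after seeing the data, 1 gene was lower in the male first step. Leaving out single libraries gave 4 to 12 higher and 12 to 28 lower in the female first step, 0 to 1 higher and 0 to 3 lower in the male first step, 1 to 10 higher and 3 to 7 lower for female over male at +9 hr, 0 to 1 higher and 0 to 1 lower at 0 hr, and 10 to 23 and 2 to 10 differing in their change in the first and last steps. For counts from the separate fits and from the fits with libraries left out, no share over all genes is given. Libraries with the same replicate number did not deviate together (r from −0.503 to 0.27 over 77 pairs, with 8 of 23 libraries closest to their own number). The replicate block kept 162 of the 163 calls, losing MAP70-5-like (adjusted p = 0.058), and gave 4 genes differing in the last step. Values near 0, as in MAP70-5-like, limit what can be said of low genes.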
